A study of Homo sapiens with 6 samples.

Results

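Mitochondria carry their own small circular genome, mtDNA, which is copied and transcribed by proteins encoded in the nucleus. The mRNA levels of 10 of these nuclear genes were examined in NCI-H660 cells: *TFAM*, *POLRMT*, *TFB1M*, *TFB2M*, *POLG*, *POLG2*, *SSBP1*, *TEFM*, *MTERF1* and *LRPPRC*. They were taken by symbol from the deposited table of 17177 genes, and all 10 were found. NCI-H660 is an established human cell line of neuroendocrine prostate cancer (NEPC), wild type by its label. The cells were treated with pyrvinium pamoate (PP), an anthelmintic drug, or with PBS as the vehicle control, and 3 libraries per treatment were collected on day 3. The study's question for these libraries was how PP, tested there as an inhibitor of the RNA-binding protein ELAVL3, changes the transcriptome of NEPC cells. Both groups are a single cell line grown in culture, the concentration of PP given to these cells was not found in the sources used here, and the labels do not state whether the libraries of a group came from separate cultures. The study calls its RNA-seq samples independent in its legends but gives another number per group in its methods than the 3 labelled and used here. The p-values therefore measure the spread between these libraries, which may be technical.

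In human cells the mitochondrial RNA polymerase POLRMT starts transcription together with TFAM, which bends and coats mtDNA, and TFB2M, which melts the promoter. TEFM then keeps the polymerase moving, and a short transcript can also prime replication, where the polymerase POLG works with its accessory subunit POLG2, the helicase TWNK and the single-strand binding protein SSBP1. LRPPRC binds the finished mitochondrial mRNAs with its partner SLIRP and stabilizes them. The nuclear factors NRF1 and GABPA are textbook activators of several of these genes.

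The libraries held 29064253 to 32481171 recovered counts each, and the level of a gene is given in FPKM, its fragments divided by its length in kilobases and by sequencing depth. The neuroendocrine label was checked with 12 markers: 11 of 12 had a mean of at least 1 FPKM, and *FOXA2* stayed under 1 FPKM in all libraries. Of the 11 tested by limma, 2 rose and 7 fell with PP, beside 38.1% and 34.4% of all genes tested. *CHGA*, which encodes the granule protein chromogranin A, was among the 7 that fell, at 42.4 to 44.1 FPKM with PBS and at 23.5 to 25.5 FPKM with PP. The 2 that rose were *SCG2*, at 7.68 to 8.89 FPKM with PBS and 12.3 to 14.4 FPKM with PP, and *INSM1*, at 15.4 to 17.2 and 18.2 to 20.5 FPKM. *NCAM1* and *SCG3* were not called. Of 13 markers of stroma, endothelium and leukocytes, 10 stayed under 1 FPKM in all libraries, and their summed level was 9.89 to 10.5 FPKM with PBS and 8.82 to 9.14 FPKM with PP. In bulk RNA, fewer cells of a kind and less RNA per cell cannot be told apart. The part of these marker shifts in the results was not tested.

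The genes lie on 8 chromosomes. On GRCh38.p14, as annotated by RefSeq, *TFAM* spans chr10:58385410-58399220, *POLRMT* chr19:617221-633537, *TFB2M* chr1:246540561-246566261 and *TFB1M* chr6:155229871-155314484. *POLG* spans chr15:89316320-89334824, *POLG2* chr17:64477785-64497054, *SSBP1* chr7:141738321-141750488 and *TEFM* chr17:30898986-30906238. *MTERF1* spans chr7:91870929-91880702 and *LRPPRC* chr2:43886224-43996265.

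Because NRF1 and GABP sites are the known shared feature of such promoters, the RefSeq promoter windows of all 10 genes (GRCh38.p14, 250 bases before to 50 bases after each start site) were searched on both strands. The NRF1 core, written as CGCANGCG where N is any base, was found in 5 of 10 genes: *TFAM*, *POLRMT*, *TFB1M*, *TFB2M* and *POLG2*. It was found in 12.0% of all 27305 genes with a promoter window and in 18.3% of the 13550 of them that the deposited table lists. The letters of this motif and of those below were written after the promoters had been read. The counts are therefore a description, and enrichment was not tested. The 5 genes are shown because 4 of them rose with PP, beside 6 of all 10 genes and 38.1% of all genes tested. *MTERF1* and *LRPPRC* also rose and held no NRF1 core. A link between the match and the change with PP was not tested. Each window is given 5′ to 3′ on the strand of the gene, and the capitals mark the match.

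TFAM, chr10:58385337-58385366, plus strand: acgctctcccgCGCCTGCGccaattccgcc

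POLRMT, chr19:633542-633571, minus strand: ggcggcgcgggCGCATGCGcaggcgcgggc

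TFB1M, chr6:155314597-155314626, minus strand: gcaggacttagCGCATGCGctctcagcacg

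TFB2M, chr1:246566259-246566288, minus strand: gctccgctgttCGCATGCGcaggctctagt

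POLG2, chr17:64497049-64497078, minus strand: cacctccgttgCGCCTGCGccgtggcctct

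The match began 62 bases before the start site in *TFAM*, 131 bases before it in *TFB1M*, 23 in *POLRMT*, 16 in *TFB2M* and 13 in *POLG2*. *POLRMT* held a second match that overlapped the first. In *TFAM* and *POLG2* the matched letters read as the NRF1 core on the opposite strand.

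The ETS core CGGAAG, the letters that GABP and other ETS factors bind, was found in 8 of 10 genes, all except *TFAM* and *POLG*, in 22.6% of all genes with a window and in 32.6% of those in the table. *TFB2M* and *MTERF1* had 3 matches each. The examples below come from *MTERF1*, which rose with PP and held no NRF1 core, and from *TFB2M*, where a pair of cores lies side by side.

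MTERF1, chr7:91880735-91880762, minus strand: cgacccgaggcCGGAAGttagtcttttc

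TFB2M, chr1:246566298-246566325, minus strand: cgaggcggaagCGGAAGtgagggagaaa

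The MYC E-box CACGTG was found in 0 of 10 genes, in 8.77% of all genes with a window and in 11.6% of those in the table. The ATF4 response element core TGATGNAA was found in 1 of 10, *SSBP1*, for which RefSeq gives 3 windows, in 4.46% of all genes with a window and in 3.39% of those in the table. A match describes letters in the window and was not tested as a binding site.

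With PP, 6 of the 10 genes rose and none fell at an adjusted p under 0.05 (limma on log2(FPKM + 1), Benjamini-Hochberg adjustment over 11726 genes). The genes that rose were *TFB2M*, *POLG2*, *MTERF1*, *LRPPRC*, *POLRMT* and *TFAM*, and their mean FPKM increased by 11.7% to 45.7%. *TFB1M*, *POLG*, *SSBP1* and *TEFM* were not called. Most genes of these cells were called, with 38.1% of all genes tested higher and 34.4% lower, and the counts of 6 and 0 are to be read against these shares. At an unadjusted p under 0.05, 7 of the 10 genes were higher and 0 lower, and limma-voom on recovered counts called 6 higher and 0 lower.

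The 3 PP libraries lay above all 3 PBS libraries for 7 of 10 genes, the 6 called and *TFB1M*, against 39.5% of all genes tested, and below them for 0, against 35.5%. None of the 10 passed the study's cutoff of P under 0.001 (unadjusted) and a log2 fold change beyond 1 in either direction, which limma gave for 2.24% of all genes as higher and for 2.93% as lower. Limma-voom also gave 0 of 10. The median log2 fold change of the 10 genes was 0.16, beside 0.022 over all genes tested. Summed over the 10 genes, the level was 160.3 ± 2.02 FPKM in the PBS libraries and 181.5 ± 2.43 FPKM in the PP libraries (SD, n = 3 each).

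**Figure D1:**
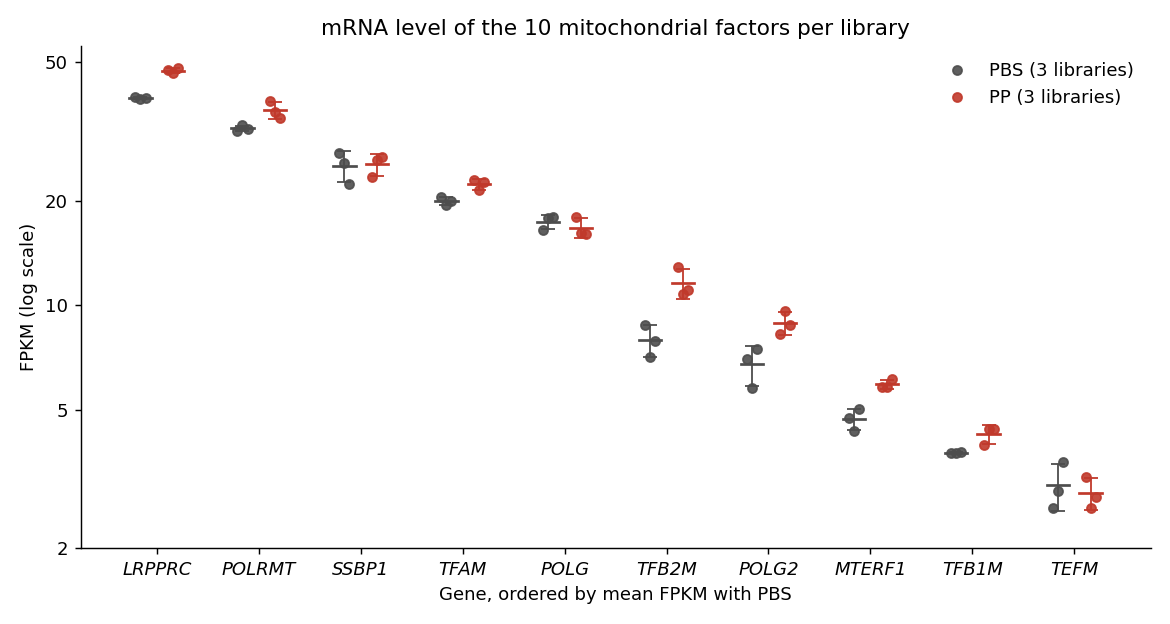
FPKM of the 10 genes in each library, on a log scale, with PBS in grey and PP in red (points are libraries, lines the mean of 3, bars the SD). The red points lie above all grey points in 7 of 10 genes and overlap them in SSBP1, POLG and TEFM.

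The order of the levels, compared per length as FPKM, was the same with both treatments: *LRPPRC*, *POLRMT*, *SSBP1*, *TFAM*, *POLG*, *TFB2M*, *POLG2*, *MTERF1*, *TFB1M* and *TEFM*. With PBS the mean ran from 39.4 FPKM for *LRPPRC* to 3.03 FPKM for *TEFM*, a range of 13.0-fold. With PP it ran from 47.3 to 2.87 FPKM, a range of 16.4-fold. Of the neighbours in this order, only *TFB2M* and *POLG2* with PBS had overlapping libraries, and with PP no neighbours overlapped.

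Among the factors that start transcription, TFB2M, the promoter-melting subunit, had the largest log2 fold change of the 10 genes. *TFB2M* was at 8.79, 7.11 and 7.90 FPKM in PBS replicates 1, 2 and 3, and at 12.9, 10.7 and 11.05 FPKM in PP replicates 1, 2 and 3. Every PP library was above every PBS library, with PP replicate 1 the highest. Limma estimated a log2 fold change of 0.49 ± 0.08 (SE) at an adjusted p of 0.000319, and 11.7% of all genes tested had a higher one. Between 360 and 470 counts per PBS library and 560 to 683 per PP library stood behind these values.

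*TFB1M* is the paralog of *TFB2M* and encodes the methyltransferase that dimethylates mitochondrial 12S rRNA. Its level was 3.76, 3.76 and 3.79 FPKM with PBS and 3.95, 4.41 and 4.41 FPKM with PP, in the same order of replicates. The groups did not overlap, and PP replicate 1 was the nearest to the PBS libraries. The log2 fold change of 0.14 (95% interval 0.0083 to 0.27) had an adjusted p of 0.0541 from limma, and 0.0245 to 0.15 over the alternatives, with the lowest value without PP replicate 1. The PBS libraries differed by a coefficient of variation of 0.478%, less than the 5.04% that counting noise gives at 377 to 405 counts per library. Exons of *TFB1M* share 30.7% of their bases with exons of *TIAM2* on the opposite strand (GENCODE on GRCh37), and *TIAM2* had a mean of 0.487 FPKM. An unnamed gene on the same strand, not in the table, shares 14.4% of them.

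*TFAM*, which packages mtDNA into nucleoids as well as starting transcription, was at 20.4, 19.5 and 19.9 FPKM with PBS and at 22.9, 21.4 and 22.6 FPKM with PP. The groups did not overlap, but the gap between them was smaller than that of *TFB2M*. *TFAM* rose by 0.15 ± 0.04 (SE) on the log2 scale, with an adjusted p of 0.00891 from limma. *POLRMT*, the polymerase itself, was at 31.8, 32.9 and 32.2 FPKM with PBS and at 38.6, 36.0 and 34.5 FPKM with PP. The PP libraries of *POLRMT* were more spread than the PBS libraries and all lay above them. By limma *POLRMT* rose by 0.17 ± 0.05 (SE) on the log2 scale (adjusted p = 0.00769). Pseudogenes of *TFAM*, *POLRMT*, *TFB2M* and *MTERF1* are annotated. Reads shared with such copies could make the values of these genes uncertain, which was not tested.

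*TEFM*, the elongation factor, was the lowest of the 10 genes, at 2.62, 2.93 and 3.54 FPKM with PBS and 3.21, 2.61 and 2.80 FPKM with PP. The groups overlapped, and PBS replicate 3 was the highest library. The log2 fold change of *TEFM* was -0.054 (95% interval -0.26 to 0.15, adjusted p = 0.617 from limma), from 213 to 299 counts per library, and it was 0.036 without PBS replicate 3. An unnamed gene on the opposite strand, not in the table, shares 20.5% of the exon bases of *TEFM*.

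*MTERF1* encodes a protein that binds mtDNA downstream of the rRNA genes, where it stops transcription. It was at 4.75, 4.35 and 5.02 FPKM with PBS and at 5.81, 5.83 and 6.13 FPKM with PP. All PP libraries were above the PBS libraries and lay close together. In limma this was a rise of 0.28 ± 0.06 (SE) on the log2 scale with an adjusted p of 0.00179.

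Of the replicative polymerase, only the accessory subunit was called by limma, and the difference between the subunits is given below as a ratio. *POLG*, the catalytic subunit, was at 16.4, 17.8 and 17.9 FPKM with PBS and at 18.0, 16.2 and 16.0 FPKM with PP. Its groups overlapped, since PP replicate 1 was above all PBS libraries and the other 2 PP libraries were below them. The log2 fold change of *POLG* was -0.053 (95% interval -0.18 to 0.070, adjusted p = 0.407 from limma). Exons of *POLG* share 5.53% of their bases with those of *FANCI* on the opposite strand, which had a mean of 37.5 FPKM, and 9.46% with *POLGARF* on the same strand, which is not in the table. *POLG2*, the accessory subunit, was at 7.0, 5.78 and 7.48 FPKM with PBS and at 8.25, 9.62 and 8.76 FPKM with PP. It was higher in every PP library, and PBS replicate 2 was the lowest. *POLG2* rose by 0.35 ± 0.08 (SE) on the log2 scale (limma, adjusted p = 0.00355), from 268 to 370 counts per PBS library and 401 to 460 per PP library.

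*SSBP1*, which covers single-stranded mtDNA at the replication fork, was at 27.5, 25.7 and 22.3 FPKM with PBS and at 23.3, 26.2 and 26.7 FPKM with PP. The groups overlapped over most of their range. Its log2 fold change was 0.017 (95% interval -0.15 to 0.18, adjusted p = 0.849 from limma), and it was -0.0057 with median-ratio size factors. *LRPPRC*, the mRNA-stabilizing factor, was the highest of the 10 genes, at 39.6, 39.1 and 39.3 FPKM with PBS and 47.3, 46.4 and 48.0 FPKM with PP. The libraries of each group lay close together and the groups were well apart. Limma gave it a rise of 0.26 ± 0.03 (SE) on the log2 scale with an adjusted p of 6.39e-05, from 7609 to 10436 counts per library.

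**Figure D2:**
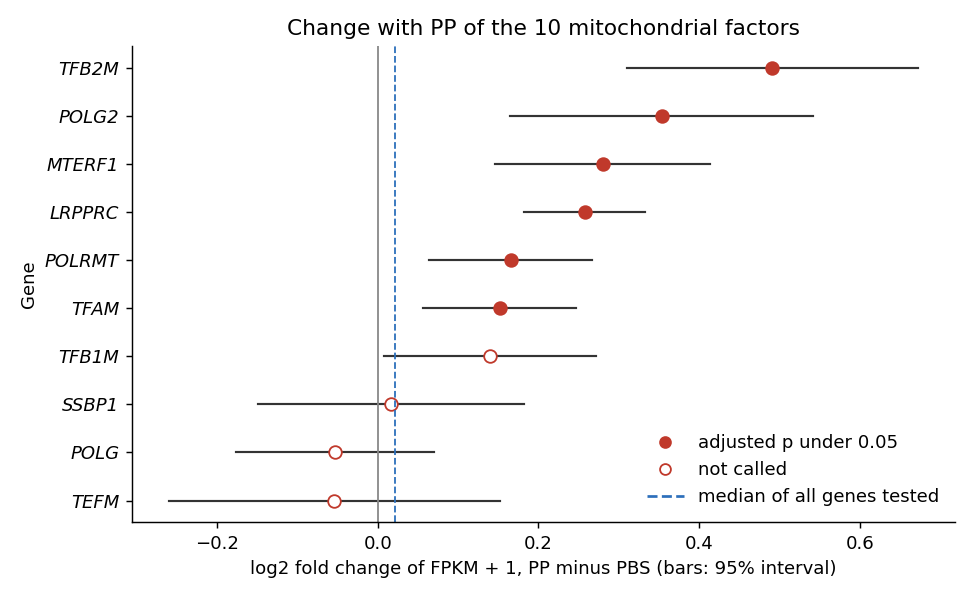
Log2 fold change of FPKM + 1, PP minus PBS, with its 95% interval from limma for each of the 10 genes (filled points have an adjusted p under 0.05, and the dashed line is the median of all genes tested at 0.022). TFB2M is highest at 0.49, and the intervals of SSBP1, POLG and TEFM span 0.

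The ratio of FPKM was compared for 7 pairs, called partner genes here, with an exact two-sided permutation test over the 6 libraries. Not all pairs act together: *TFB2M* and *TFB1M* are paralogs with separate roles, and TFAM is degraded by LONP1. With 3 libraries against 3 the smallest p such a test can give is 0.1, and after Benjamini-Hochberg adjustment over the 7 pairs it was 0.175, so no pair can pass 0.05. *POLG2* stood to *POLG* at 0.39 ± 0.057 in PBS libraries and at 0.534 ± 0.069 in PP libraries (SD, n = 3 each), a log2 difference of 0.46 (standard error 0.17) with an exact permutation p of 0.1. *TFB2M* stood to *TFB1M* at 2.11 ± 0.225 in PBS libraries and at 2.73 ± 0.46 in PP libraries (SD, n = 3 each). Their log2 difference was 0.37 (standard error 0.16), also with p = 0.1 from the exact permutation test, and it was 0.23 without PP replicate 1. In both pairs the ratio was higher in every PP library than in any PBS library.

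The *LRPPRC* to *SLIRP* ratio was 0.378 ± 0.022 in PBS libraries and 0.44 ± 0.017 in PP libraries (SD, n = 3 each), again without overlap (exact permutation p = 0.1). The *TFAM* to *LONP1* ratio, a nucleoid protein against the protease known to degrade it, was 0.229 ± 0.0097 in PBS libraries and 0.141 ± 0.0081 in PP libraries (SD, n = 3 each). This log2 difference of -0.70 (standard error 0.06) was the largest of the 7 and had no overlap (exact permutation p = 0.1). Both genes were higher with PP, with limma log2 fold changes of 0.15 for *TFAM* and 0.85 for *LONP1*.

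In the other 3 pairs the groups overlapped. The log2 difference was -0.011 (standard error 0.06, exact permutation p = 1) for *TFAM* to *POLRMT* and -0.24 (standard error 0.14, exact permutation p = 0.2) for *TEFM* to *POLRMT*. The first took either sign with single libraries left out, from -0.058 to 0.018, and the second was -0.12 without PBS replicate 3. For *SSBP1* to *TWNK* it was -0.53 (standard error 0.22, exact permutation p = 0.2), and PBS replicate 3, at 3.68, lay among the PP libraries, at 3.07 to 3.82.

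**Figure D3:**
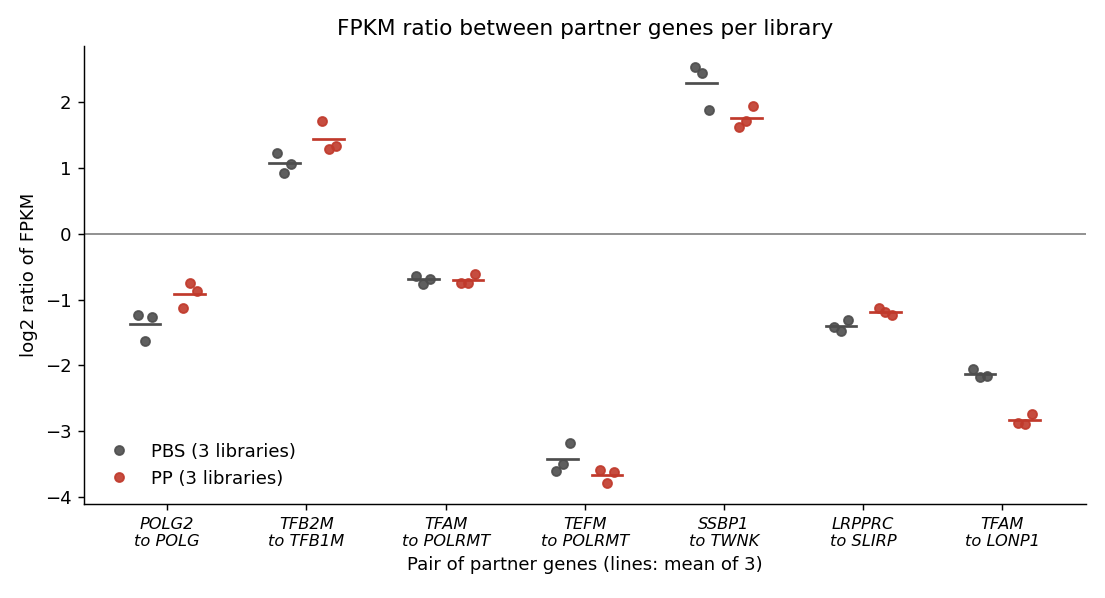
Log2 ratio of FPKM between partner genes in each library, with PBS in grey and PP in red (points are libraries, lines the mean of 3). TFAM to LONP1 falls from a mean of -2.13 to -2.83, with both genes higher with PP, while TFAM to POLRMT lies at -0.69 and -0.71.

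Other proteins of mtDNA replication and repair moved in both directions. Of 18 genes listed, 10 rose and 5 fell, beside 38.1% and 34.4% of all genes tested, with a median log2 fold change of 0.20. *LONP1* had the highest, with 87.4 ± 2.05 FPKM in PBS libraries and 159 ± 8.15 FPKM in PP libraries (SD, n = 3 each) (log2 fold change 0.85, adjusted p = 3.97e-08 from limma). *TWNK*, the replicative helicase, went from 5.19 ± 0.767 to 7.54 ± 0.522 FPKM (SD, n = 3 each), a log2 fold change of 0.47 with an adjusted p of 0.000615 from limma. *APEX1* and *FEN1*, which act in base excision repair and flap removal in the nucleus as well as in mitochondria, had the lowest log2 fold changes, -0.29 and -0.25 (adjusted p = 0.000221 and 0.00193 from limma).

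The 21 genes of mitochondrial nucleotide supply gave 7 higher and 8 lower with a median of -0.015, about the shares over all genes tested (38.1% higher, 34.4% lower). *SLC25A36*, a pyrimidine nucleotide carrier, rose from 47.2 ± 1.12 to 100.5 ± 4.11 FPKM (SD, n = 3 each), with a log2 fold change of 1.07 (adjusted p = 5.21e-09 from limma). *TYMP*, thymidine phosphorylase, rose by 0.52 on the log2 scale (adjusted p = 0.00242 from limma), but from only 24 to 59 counts per PBS library, and limma-voom gave 1.02. *NME4*, the mitochondrial nucleoside diphosphate kinase, and *RRM2*, a subunit of ribonucleotide reductase that is highest in S phase, fell by 1.01 and 0.81 on the log2 scale (adjusted p = 1.52e-07 and 4.01e-08 from limma).

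In the MTERF family, named after *MTERF1*, 2 of 4 genes rose, beside 38.1% of all genes tested. *MTERF3* went from 33.3 ± 2.44 to 43.3 ± 1.80 FPKM (SD, n = 3 each), with a log2 fold change of 0.37 (adjusted p = 0.000136 from limma). *MTERF2* was not called, at 0.051 (adjusted p = 0.567 from limma). *MTERF4* was lower by the threshold, with a log2 fold change of -0.16 and an adjusted p of 0.042 from limma, but its adjusted p was 0.0199 to 0.145 over the alternatives, and it was over 0.05 without each of 5 libraries: PBS replicates 1, 2 and 3 (0.0681, 0.116 and 0.0743) and PP replicates 1 and 2 (0.0645 and 0.145).

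Of 24 genes tested for the processing and decay of mitochondrial RNA, 10 rose and 4 fell, beside 38.1% and 34.4% of all genes tested, with a median of 0.059. *REXO2*, an oligoribonuclease, and *SUPV3L1*, the helicase of the mitochondrial RNA degradosome, had the highest log2 fold changes, 0.92 and 0.67 (adjusted p = 2.23e-07 and 2.32e-07 from limma). *PRORP* and *HSD17B10*, both subunits of mitochondrial RNase P, had the lowest, -0.48 and -0.37 (adjusted p = 3.61e-05 and 9.79e-05 from limma). *TRMT10C*, also a subunit of this enzyme, was called higher, at 0.22 (adjusted p = 0.0408 from limma). Its groups overlapped, and its adjusted p reached 0.15 over the alternatives. *SLIRP*, the partner of *LRPPRC*, was at 104 ± 5.88 FPKM with PBS and 107 ± 4.99 FPKM with PP (SD, n = 3 each), and its log2 fold change of 0.043 was not called (95% interval -0.064 to 0.15, adjusted p = 0.44 from limma).

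Among the nuclear regulators of mitochondrial biogenesis, 10 of 12 genes rose and 1 fell, beside 38.1% and 34.4% of all genes tested, with a median of 0.30. *NRF1*, whose core motif is shown above, was at 8.01, 8.83 and 8.26 FPKM with PBS and at 15.9, 16.7 and 15.7 FPKM with PP. The groups were far apart, and *NRF1* rose by 0.87 ± 0.05 (SE) on the log2 scale (limma, adjusted p = 1.47e-07). *PPRC1*, a coactivator related to PGC-1α, rose from 10.8 ± 0.422 to 22.8 ± 0.754 FPKM (SD, n = 3 each), a log2 fold change of 1.02 with an adjusted p of 2.68e-08 from limma. Only 3.22% of all genes tested had a higher log2 fold change than *NRF1*, and 2.12% a higher one than *PPRC1*.

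*GABPA* also rose, with a log2 fold change of 0.17 (adjusted p = 0.0117 from limma). *PPARGC1A*, which encodes PGC-1α, rose from 1.01 ± 0.136 to 1.65 ± 0.153 FPKM (SD, n = 3 each), with a log2 fold change of 0.40 (adjusted p = 0.00114 from limma) that the pseudocount holds down at this low level. Limma-voom on recovered counts gave 0.71 for the same gene. *PPARGC1B* was the 1 regulator that fell, with a log2 fold change of -0.24 (adjusted p = 0.00838 from limma) and of -0.41 from limma-voom.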

How the data were processed

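The deposited values are FPKM, 1 value per gene symbol and library, which the authors made from filtered reads. The methods name Bowtie with hg19, RSEM, Cufflinks and HTSeq-count, while the submitters' processing notes name fastp, HISAT2, HTSeq and GRCh38, and neither says which gave the table. The table holds no coordinates. Positions and promoters come from RefSeq on GRCh38.p14 (all 10 genes matched) and exon overlaps from GENCODE on GRCh37. Per the labels the library kit was stranded, but whether counting used the strand is not given in the sources used here.

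FPKM values were whole multiples of a step per gene, within 0.01 of a count, so counts were recovered for all 17177 genes. Tested on simulated data, the recovery was exact for 97.7% of 1772 genes averaging 10 counts or more. At this depth, counting noise alone gives *TEFM*, the lowest of the 10 genes, a coefficient of variation of 6.32% with PBS. A mean of at least 1 FPKM was required, which left 11726 genes. Log2(FPKM + 1) values were fitted with limma 3.58.1 in R 4.3.3 (lmFit, eBayes with trend) without covariates, with Benjamini-Hochberg adjustment over all genes tested. A fold change on this scale understates the change of low genes. In simulated data of 11726 genes for this comparison, 74.6% of genes changed by 0.3 and 100% of genes changed by 0.6 on the log2 scale were called, and 14 unchanged genes were called. Only 67 genes were changed at each of these sizes, and the extra spread between libraries was set equal for every gene. In the data 38.1% of genes were called higher and 34.4% lower, so the simulated rates do not measure the sensitivity of this comparison. Partner ratios, without a pseudocount, were compared by an exact permutation test (scipy 1.17.1 in Python 3.11.15).

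The 10 genes, the lists and the tests were chosen with earlier results of these data known, and the letters of the motifs were written after the promoters had been read. All 10 genes and a fixed set of partners are named, and in each list the 2 genes at either end among those called. *TRMT10C* was named in addition, as a further subunit of mitochondrial RNase P. Alternatives changed the filter on low values, pseudocount, scaling, eBayes trend, the model (limma-voom), the replicate block and the libraries included. Of 15 genes encoded by mtDNA, 0 were found by symbol in the deposited table, and *KLK2* and *KLK3* were not found either. None of these was therefore analysed here.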

Additional observations from a re-analysis of the deposited data

How the results depend on the processing

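Across 14 alternatives, the 6 genes called as higher (*TFB2M*, *POLG2*, *MTERF1*, *LRPPRC*, *POLRMT* and *TFAM*) were called in every one that tested them, 6 to 7 of the 10 genes were higher and 0 were lower. The seventh was *TFB1M*, called without the eBayes trend (adjusted p = 0.0288 from limma) and without PP replicate 1 (adjusted p = 0.0245). A filter of a mean FPKM of at least 5 left 8 of the 10 genes. Of the 4 genes not called, *POLG* and *TFB1M* kept 1 sign in all alternatives that tested them, and the others did not: *SSBP1* was at -0.0057 with median-ratio size factors and at -0.063 to 0.080 with each library left out, and *TEFM* at -0.13 to 0.036. Likewise *SLIRP* was at -0.0022 to 0.077 and *MTERF2* at -0.023 to 0.10. In the MTERF family 0 genes were lower with the replicate block, with no filter and with a mean FPKM of at least 5, and 0 to 1 with each library left out. Among the nuclear regulators 0 were lower with a mean FPKM of at least 5, which leaves *PPARGC1B* out, and among the genes of rRNA and tRNA modification 1 to 2 were lower with each library left out. Over all genes, those past the study's cutoff numbered 397 higher and 559 lower with limma-voom and 531 lower with a pseudocount of 0.1, against 263 and 344. Except for the filter, the cause was not tested.

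Same-numbered libraries had correlations of -0.21, -0.014 and -0.13 between their deviations from the group means. Libraries with different numbers were not compared in this way, so these values do not settle whether the replicate numbers pair the libraries. With the replicate block, 4260 genes were higher and 3878 lower at an adjusted p under 0.05, and 6 of the 10 genes were higher.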

Other observations

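Genes that modify mitochondrial rRNA and tRNA were listed as well. Of 17 tested, limma called 12 higher and 1 lower in the PP libraries, against 38.1% and 34.4% of all genes tested, and the median log2 fold change was 0.22. *MTO1*, which modifies the wobble uridine of mitochondrial tRNAs, went from 2.73 ± 0.06 to 5.44 ± 0.258 FPKM (SD, n = 3 each), a log2 fold change of 0.79 with an adjusted p of 7.95e-07 from limma. *TRNT1*, which adds the CCA end to tRNAs, followed at 0.46 (adjusted p = 8.34e-06 from limma). *TRIT1*, a tRNA isopentenyltransferase, was the gene that fell, with a log2 fold change of -0.19 (adjusted p = 0.0102 from limma). The summed level of the list was 189.1 to 189.9 FPKM in the PBS libraries and 213.3 to 225.5 FPKM in the PP libraries.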
